A study of Mus musculus with 12 samples.

Results

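T cells whose receptor carries an extra cysteine in the third complementarity-determining region (CDR3) made up 1313 of the 19115 T cells examined (6.87%), in 543 of 10624 clonotypes. A cell was examined when its barcode held exactly 1 distinct T cell receptor (TCR) beta chain (TRB) and 1 or 2 alpha chains (TRA). It was a member when the CDR3 of the TRB, or of the TRA with the most unique molecular identifiers (UMIs), held a cysteine at any position after the first. The cysteine lay in the TRB of 1267 cells and in the TRA of 49, and 3 of these cells had both. A clonotype here groups the cells of 1 library that have the same TRB by V, J and CDR3 bases and a TRA in common, and it counts as a member when at least 50% of its cells do.

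The cells came from subcutaneous tumours of a p53 knockout derivative of MC38, a colon carcinoma line from the mouse. For this derivative the labels also give a p53 substitution, written in more than 1 way. The hosts were C57BL/6J mice 6 to 8 weeks old. On day 10 tumours were given 40 µg of an agent that the labels name LNP-Ctrl in 1 group and LNP-P20-mAb in the other, in a series about an antibody to common p53 mutants. Leukocytes were sorted for CD45, about 10000 per sample, and their TCR transcripts were enriched from 5′ single-cell libraries. There were 3 TCR libraries per treatment. The gene expression samples, 6 in number, were not analysed here, so no cell state or CD4 or CD8 lineage can be given. The labels do not state whether each library was made from a different animal. The permutation p-values below therefore rest on the spread among the libraries alone, part of which may be technical. The edgeR p-values rest on that spread and on a model of clonotype counts, with the variance estimated partly over all segments or residues. Where a sentence gives 3 values for a treatment, they are those of its libraries 1, 2 and 3 in that order.

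The CDR3 is the loop formed where V, D and J segments of the beta chain, or V and J of the alpha chain, are joined, and it lies over the peptide held by the MHC molecule. Its first residue is a framework cysteine that pairs with another cysteine inside the immunoglobulin fold, so every CDR3 has 1. A further cysteine is rare in mature receptors. Receptors with a cysteine at the top of either CDR3 loop are known from mouse work to react strongly with self peptides in the thymus, where most such cells are deleted or diverted to an intraepithelial lineage.

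The extra cysteines were of 2 kinds, and nearly all came from a single gene segment. TRBV1, the mouse Vβ2 segment, was used by 1216 of the 1313 members (92.6%), and 1216 of all 1217 TRBV1 cells carried a cysteine at position 3. No other segment was found to encode one. The common part that each segment gives to the CDR3, read from these chains, held a cysteine after the first residue in 1 of 22 TRBV segments, in 0 of 81 TRAV, in 0 of 43 TRAJ and in 0 of 12 TRBJ segments. Members therefore split into 451 clonotypes with a V-encoded cysteine and 92 clonotypes in which the only extra cysteine was junctional. Junctional here means that the codon was not wholly within the part common to its V or J segment. The CDR3 bases below show the V-encoded kind, with the cysteine codon in capitals, for the largest member clones of the series.
TRBV1 with TRBJ2-5, LNP-P20-mAb 1 (216 cells) and 2 (95): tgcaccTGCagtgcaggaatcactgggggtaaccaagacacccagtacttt
TRBV1 with TRBJ2-1, LNP-P20-mAb 1 (58 cells) and 2 (64): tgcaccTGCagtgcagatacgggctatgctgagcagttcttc
TRBV1 with TRBJ1-5, LNP-P20-mAb 1 (53 cells) and 2 (34): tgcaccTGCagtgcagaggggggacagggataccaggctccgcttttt
TRBV1 with TRBJ2-1, 76 cells in LNP-P20-mAb 3: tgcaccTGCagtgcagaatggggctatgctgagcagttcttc
TRBV1 with TRBJ1-1, 54 cells in LNP-Ctrl 2: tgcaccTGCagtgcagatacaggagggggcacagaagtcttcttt

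The junctional kind is shown by 8 receptors chosen after their values were seen, among them the 3 junctional clonotypes that had more than 1 cell. The capitals again mark the cysteine codon.
TRBV5 with TRBJ2-4, LNP-Ctrl 2: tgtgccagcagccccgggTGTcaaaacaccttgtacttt
TRBV2 with TRBJ2-4, LNP-P20-mAb 1: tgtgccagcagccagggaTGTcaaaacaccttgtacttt
TRBV12-2 with TRBJ2-3, LNP-P20-mAb 3: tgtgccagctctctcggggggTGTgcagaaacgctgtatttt
TRBV10 with TRBJ2-7, LNP-Ctrl 1: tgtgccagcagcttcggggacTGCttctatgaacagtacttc
TRBV2 with TRBJ2-7, LNP-P20-mAb 3, 2 cells: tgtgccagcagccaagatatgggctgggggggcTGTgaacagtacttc
TRAV12-2 with TRAJ31, LNP-Ctrl 1: tgtgctttgTGCaataacagaatcttcttt
TRAV13-1 with TRAJ43, LNP-Ctrl 3, 2 cells: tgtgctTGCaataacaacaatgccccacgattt
TRAV12N-2 with TRAJ9, LNP-P20-mAb 3, 2 cells: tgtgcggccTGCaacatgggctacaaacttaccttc

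The V-encoded cysteine was the same base for base in every chain that had it. All 451 clonotypes had the codon tgc at position 3, after a threonine, and 434 (96.2%) had a serine next. The cysteine stood 2.5 to 7.5 residues on the V side of the middle of the loop (median 4.5), and in 0 of 451 clonotypes within 2 residues of it. The only TRBV1 cell without it was in LNP-Ctrl 1. Outside the CDR3, TRBV1 chains had 1 cysteine in the first framework region and none in the other regions, so that 448 of 451 distinct TRBV1 chains (99.3%) held 3 in the variable domain. Of the 10135 distinct chains of other TRBV segments, 8378 (82.7%) held 2. TRBV5, TRBV17, TRBV20 and TRBV30 chains also had a median of 3, with the additional cysteine in a framework region instead of the CDR3.

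Junctional cysteines sat elsewhere in the loop, and differently in the 2 chains. In the TRB, 46 of 52 junctional cysteines (88.5%) lay within 2 residues of the middle (median 0.5 residues on the J side), most often at position 8 (16 of 52), 6 (11) or 9 (9). Only codons at least partly outside the common V start and J end count as junctional, so the definition itself places them near the middle. Whether cysteine differs in this from other junctional residues was not tested. In the TRA, where the V end is short, 15 of 45 lay at position 4, 10 at position 5 and 8 at position 3. These counts include 2 TRBV1 clonotypes with a second, junctional TRB cysteine and 2 more TRBV1 clonotypes with one in the TRA. A single clonotype had a junctional cysteine in both chains.

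**Figure D1:**
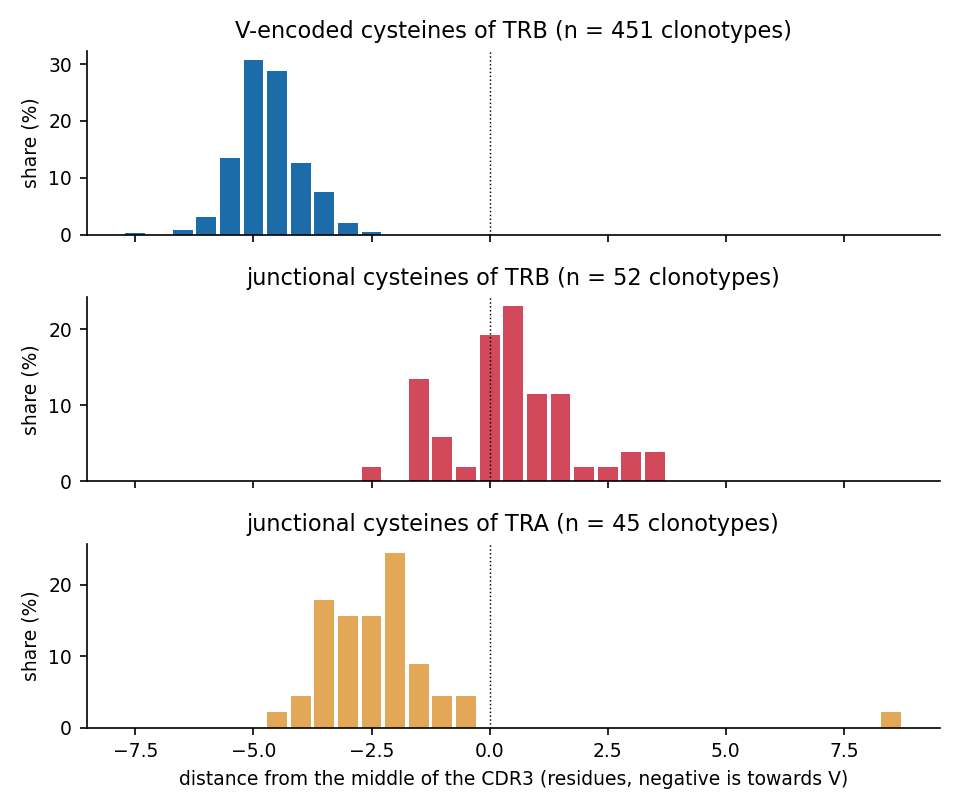
Distance of the extra cysteine from the middle of the CDR3 in residues (horizontal axis, negative towards V) as a share of the clonotypes of each kind (vertical axis, %), 1 panel per kind. V-encoded cysteines end 2.5 residues before the middle, 46 of the 52 junctional cysteines of the TRB lie within 2 residues of it, and those of the TRA lie mostly on its V side. Junctional codons lie at least partly outside the common V start and J end by definition.

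The last bases of the junctional codons often matched the J segment. A match of 1 base can arise without the segment, and other junctional codons were not compared. In 11 of the 12 junctional cysteines with TRBJ2-4, the last 2 bases of the codon matched the segment. The cysteine then stood where the full segment has a serine, as in the TRBV5 and TRBV2 chains with TRBJ2-4 shown above. The same held for 5 of 6 cysteines with TRBJ2-3, whose full end also starts with a serine. With TRBJ2-7, the segment with the most (15), 3 codons matched it in 2 bases, 7 in 1 and 5 in none. Per chain, a junctional cysteine was present in 1.28% of TRBJ2-4 chains (12 of 936), in 0.712% of TRBJ2-7 chains (15 of 2107) and in 0.286% of TRBJ1-1 chains (3 of 1049). Over all TRB, 33 of 52 codons were tgt and 19 tgc. Over all TRA, 22 of 45 were tgt and 23 tgc, and 24 of 45 matched the J segment in 1 or 2 bases. The D segment, which the deposited annotation seldom names, was called in 14 of the 52 TRB chains, 7 TRBD1 and 7 TRBD2. A glycine stood before 27 of the 52.

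Cysteine was the rarest of the 20 residues among junctional codons in both chains. It made up 1.25 per 1000 junctional codons of the TRB (52 of 41738) and 2.89 per 1000 of the TRA (45 of 15580). Methionine, with a single codon the next rarest, was at 3.69 and 10.1 per 1000. Glycine, the most frequent, was at 326 and 156 per 1000.

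Chains with junctional cysteines were read with about as many UMIs as other chains. Their TRB had a median of 19 UMIs (range 2 to 100, 51 cells), against 17 in other cells, and 50 of the 51 had at least 3. Their TRA had a median of 6 UMIs (range 1 to 22, 49 cells), against 7. In the same library and with the same V and J, 0 of 50 distinct TRB and 0 of 47 distinct TRA chains differed by 1 base from another chain. That was so for 129 of 10086 TRB chains (1.28%) and 606 of 10481 TRA chains (5.78%) without an extra cysteine.

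LNP-P20-mAb 1 and 2 shared most of their member cells by clone, so they are not independent samples. That applies to the comparisons by treatment, to those within libraries, and to the fits of segments and residues. They had 112 clonotypes in common by main TRA and TRB, of which 6 were members. These 6 held 343 member cells of LNP-P20-mAb 1 (95.01%) and 215 of LNP-P20-mAb 2 (92.3%). The matching share of other cells was not computed, so these values do not set members apart. Among all cells examined, 189 of 18924 barcode sequences occurred in more than 1 library. Of the members, 29 had such a barcode, and in 0 of them did the other library hold the same TRB chain under it. Values with both counted as 1 sample are given beside the treatment comparisons and the expanded shares. The libraries held 2016 to 3923 examined cells and 85835 to 145847 UMIs, and 0 of 48792 deposited chains were gamma, delta or immunoglobulin chains.

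Among T cells, members made up the highest shares in 2 of the 3 LNP-P20-mAb libraries. LNP-Ctrl libraries had 4.38%, 5.404% and 5.22% of their cells with an extra cysteine. LNP-P20-mAb libraries had 11.1%, 11.6% and 5.84%. The groups did not overlap, although LNP-P20-mAb 3 lay close to the control range. The difference was 4.49 percentage points (5.00 ± 0.545 against 9.49 ± 3.17, SD, n = 3 each; two-sided exact permutation p = 0.1, the smallest that 20 assignments allow, adjusted p = 0.225 over 9 treatment comparisons). With LNP-P20-mAb 1 and 2 as 1 sample it was 3.57 points. With TRBV1 chains left out it was 0.0423 points (exact permutation p = 1).

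**Figure D2:**
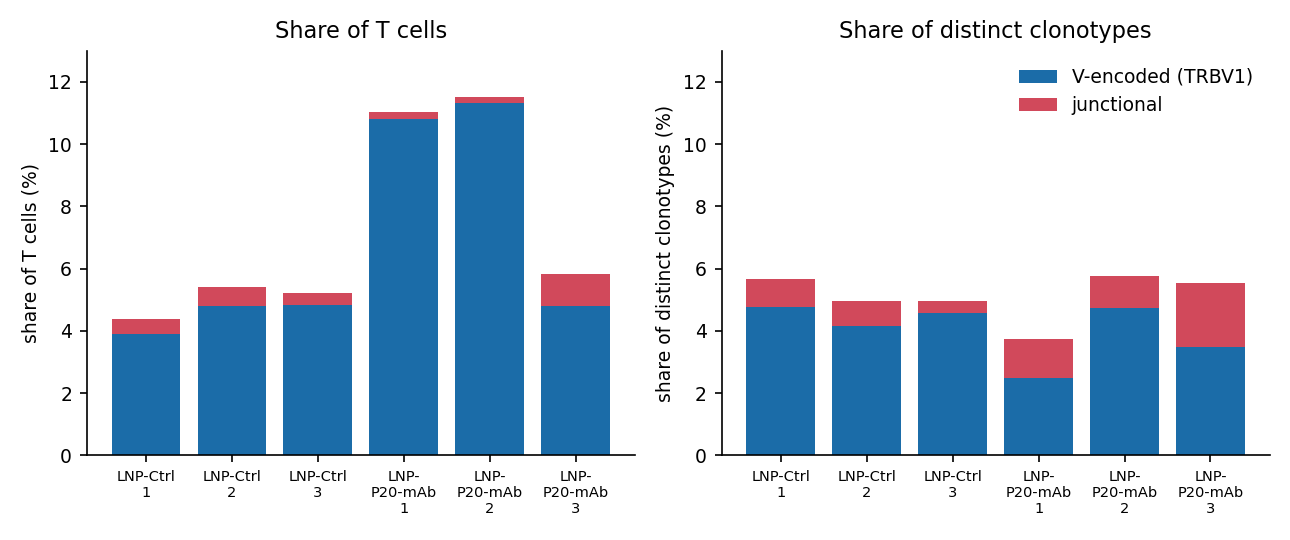
Share of T cells (left) and of distinct clonotypes (right) with an extra cysteine in each of the 6 libraries (%), split into V-encoded (blue) and junctional (red). The cell share stands out in LNP-P20-mAb 1 and 2 at 11.1% and 11.6%, while the clonotype share lies between 3.74% and 5.75% in all 6 libraries.

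With every clonotype counted once, the share of members overlapped between the treatments, and of the 2 kinds the junctional did not overlap. Control libraries had members among 5.67%, 4.95% and 4.95% of clonotypes. LNP-P20-mAb libraries had 3.74%, 5.75% and 5.54% (difference -0.179 points, exact permutation p = 0.9). V-encoded cysteines were found in 4.78%, 4.17% and 4.57% of control clonotypes, against 2.49%, 4.75% and 3.47% after LNP-P20-mAb (difference -0.935 points, exact permutation p = 0.3), again with overlap. Junctional cysteines were found in 0.889%, 0.776% and 0.381% of control clonotypes (16, 24 and 13). After LNP-P20-mAb the shares were 1.25%, 1.00% and 2.07% (7, 4 and 28 clonotypes). These groups did not overlap. The difference was 0.756 points (0.682 ± 0.267 against 1.44 ± 0.559, SD, n = 3 each; two-sided exact permutation p = 0.1, adjusted p = 0.225).

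Of the junctional clonotypes, 30.4% came from LNP-P20-mAb 3. Without that library the difference in junctional share was 0.441 points, and with LNP-P20-mAb 1 and 2 as 1 sample it was 0.913. Counted that way, the difference was -0.0462 points for all member clonotypes. For V-encoded ones it was -0.960 with no overlap (exact permutation p = 0.1, the smallest possible), and without LNP-P20-mAb 1 it was -0.395 and without LNP-P20-mAb 2 -1.52. Counting error is wide at these numbers, the 95% exact Clopper-Pearson interval of LNP-P20-mAb 2 running from 0.273% to 2.54%. As nearly all junctional clonotypes were single cells, their share was also taken of single-cell clonotypes, a description added with the values known. Control libraries had 0.971%, 0.827% and 0.364%, against 1.54%, 1.31% and 2.20% in LNP-P20-mAb libraries, again without overlap, and the mean of LNP-P20-mAb 1 and 2 was 1.42%.

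Cysteines near the top of the loop and cysteines of the TRA followed the same order, but they are largely the junctional cysteines counted again. V-encoded cysteines lay within 2 residues of the middle in 0 of 451 clonotypes. All 45 TRA cysteines were junctional, and 19 of these 45 lay within 2 residues of the middle. The 3 comparisons therefore overlap and are not separate results. Clonotypes with a cysteine within 2 residues of the middle of either CDR3 made up 0.722%, 0.485% and 0.176% of control clonotypes, against 1.07%, 0.750% and 1.62% after LNP-P20-mAb. They did not overlap, though LNP-Ctrl 1 and LNP-P20-mAb 2 were close (difference 0.686 points, exact permutation p = 0.1, adjusted p = 0.225). Without LNP-P20-mAb 3 the difference was 0.448 points (exact permutation p = 0.2). Those with a TRA cysteine made up 0.389%, 0.453% and 0.293%, against 0.534%, 0.750% and 0.591%. This difference of 0.247 points was also at exact permutation p = 0.1 (adjusted p = 0.225), and without chains of low UMI support it was 0.197 points with p = 0.3 in the exact permutation test. With LNP-P20-mAb 1 and 2 as 1 sample these differences were 0.806 and 0.238 points.

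All member clones of 20 or more cells were V-encoded. The largest clone with a junctional cysteine had 2 cells, while V-encoded clones reached 216. Clones of 20 or more cells held 650 of the 1216 V-encoded cells (53.5%) in 8 clonotypes, and 0 of the 95 cells of junctional clonotypes. For comparison, such clones held 30.8% of the cells without an extra cysteine. By clonotype, 8 of 451 V-encoded, 0 of 92 junctional and 70 of 10081 without an extra cysteine were of this size. At so low a share, 0 of 92 does not set the junctional kind apart. Clones shared by LNP-P20-mAb 1 and 2 count in both libraries, among them 3 of the V-encoded ones.

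In control libraries 11 of 86, 5 of 129 and 12 of 156 V-encoded clonotypes had expanded to 2 or more cells. In LNP-P20-mAb libraries 7 of 14, 5 of 19 and 7 of 47 had. The expanded share of V-encoded clonotypes exceeded that of clonotypes without an extra cysteine in 5 of 6 libraries, on average by 7.12 points (19.3% ± 16.9 against 12.1% ± 7.68, SD over 6 libraries; exact sign-flip permutation p = 0.0938, adjusted p = 0.281 over 12 within-library comparisons). LNP-P20-mAb 1 carried most of this gap, and without it the mean was 2.20 points. With LNP-P20-mAb 1 and 2 as 1 sample it was 5.10.

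Among junctional clonotypes 3 of 92 had expanded. Control libraries had 0 of 16, 0 of 24 and 1 of 13. LNP-P20-mAb libraries had 0 of 7, 0 of 4 and 2 of 28. At the expanded share of clonotypes without an extra cysteine in the same library, 9.13 would have been expanded. The difference averaged -9.67 points (2.47% ± 3.83 against 12.1% ± 7.68, SD over 6 libraries) and was negative in 5 of 6, LNP-Ctrl 3 being the exception. It did not pass the test (exact sign-flip permutation p = 0.0625, adjusted p = 0.25), and it was -7.41 points with LNP-P20-mAb 1 and 2 as 1 sample. For all members, of both kinds, the expanded share exceeded that of the rest by 2.66 points on average and in 3 of 6 libraries (exact sign-flip permutation p = 0.469). That mean was 1.88 points with LNP-P20-mAb 1 and 2 as 1 sample and 0.185 without LNP-P20-mAb 1. The log2 ratio of mean cells per clonotype, members to others, was 0.45 ± 0.77 (SD over 6 libraries) and above 0 in 5 of 6 (exact sign-flip permutation p = 0.281). It was 0.26 with these 2 libraries as 1 sample and 0.20 without LNP-P20-mAb 1.

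**Figure D3:**
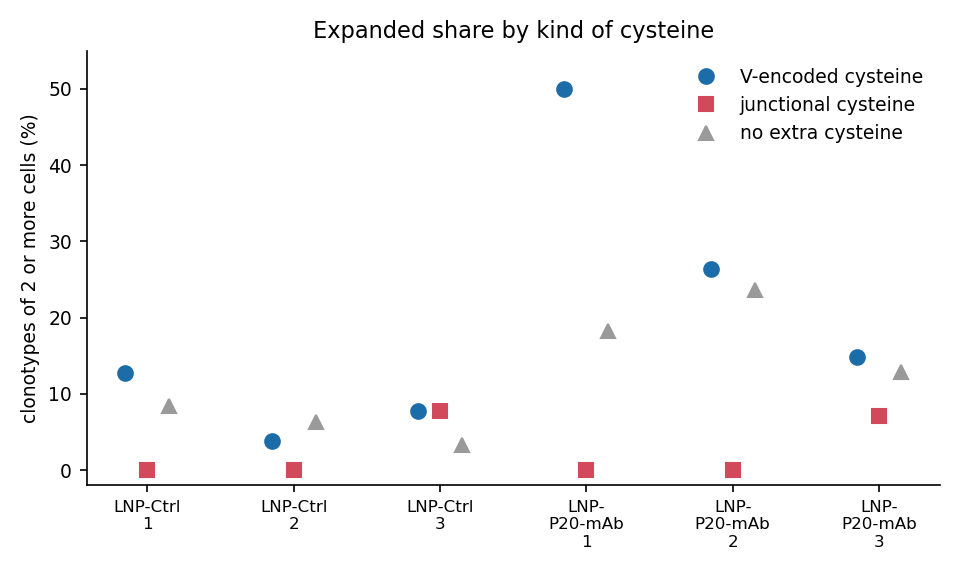
Share of clonotypes with 2 or more cells (vertical axis, %) in each of the 6 libraries, for clonotypes with a V-encoded cysteine (circles), a junctional cysteine only (squares) and no extra cysteine (triangles). Junctional clonotypes are at 0 in 4 libraries and below the triangles in 5 of 6, and the highest circle is LNP-P20-mAb 1 at 50.0%, 7 of 14 clonotypes.

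The 3 expanded junctional clonotypes had 2 cells each. The one in LNP-Ctrl 3 paired TRBV20 with the TRAV13-1 chain shown above, which holds the cysteine. In LNP-P20-mAb 3 one paired the TRBV2 chain shown above, which holds the cysteine, with TRAV13N-4, and the other paired TRBV5 with the TRAV12N-2 chain shown above, which holds it. The TRBV2 cysteine stood 3.5 residues from the middle of its loop, so 0 expanded clonotypes had a junctional TRB cysteine within 2 residues of the middle.

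Each of the 20 residues was compared in the same way, in a fit added with the values known, by counting expanded and single-cell clonotypes with the residue at a junctional codon. Junctional TRB cysteine was present in 1 of 840 expanded clonotypes (0.119%) and in 51 single-cell clonotypes (0.521%), a log2 difference of -2.52 ± 0.94 (SE worked back from the F statistic), the lowest estimate of the 40 tested. It did not pass (edgeR adjusted p = 0.0972, unadjusted p = 0.0121). Junctional TRA cysteine was present in 2 expanded (0.238%) and 43 single-cell clonotypes (0.439%), at -1.10 ± 0.86 (edgeR adjusted p = 0.441). The 4 calls were 2 higher (5%) and 2 lower (5%) of 40 residues (10%), and 10 had an unadjusted p below 0.05 (25%). Aspartate and tryptophan of the TRB were less frequent in expanded clonotypes (-0.58 ± 0.09 and -0.68 ± 0.13), and threonine of the TRB and TRA was more frequent (0.33 ± 0.09 and 0.67 ± 0.22). Calls numbered 2 with LNP-P20-mAb 1 and 2 pooled, where both threonine calls were lost, and 2 without LNP-Ctrl 2 or without any 1 of the LNP-P20-mAb libraries.

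**Figure D4:**
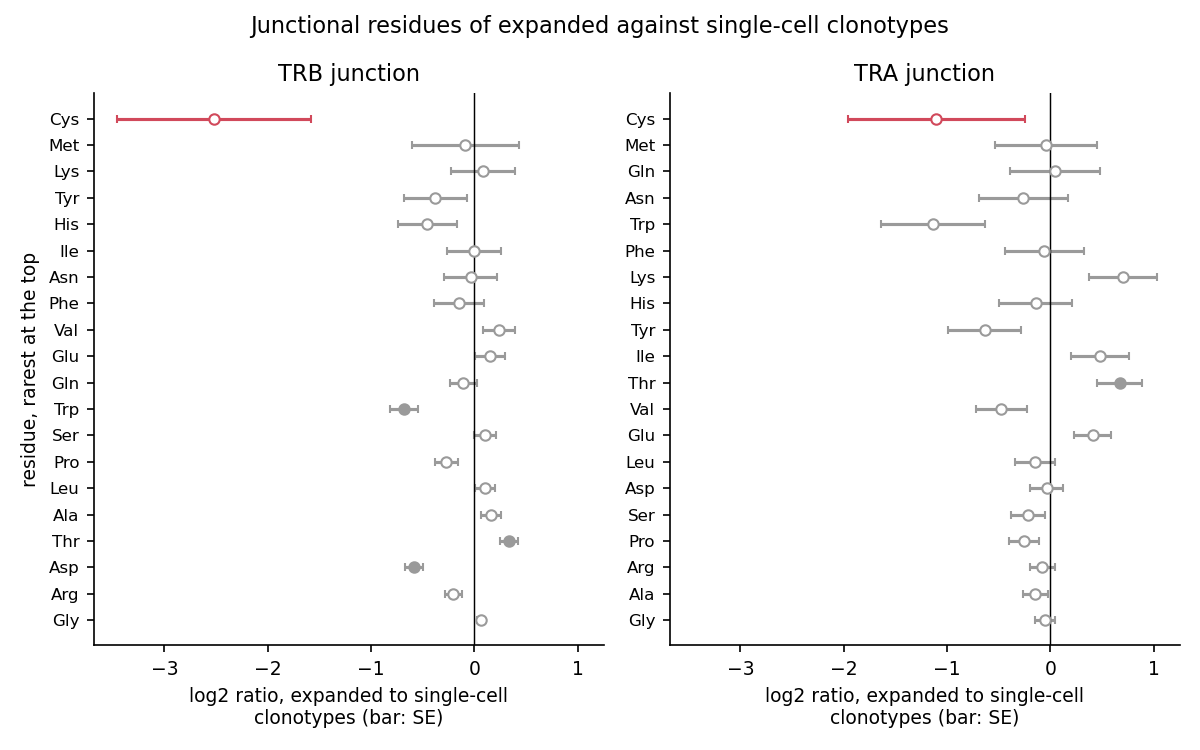
Log2 ratio of the frequency of each residue at junctional codons in expanded against single-cell clonotypes (horizontal axis, bars are SE worked back from the F statistic), with residues ordered from the rarest at the top, for TRB (left) and TRA (right). Filled points passed the edgeR test and cysteine is red. TRB cysteine has the lowest estimate, -2.52, with the widest bar in its panel, and is not filled.

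The large V-encoded clones were few, and an alpha chain recurred among them. In LNP-P20-mAb 1 the TRBJ2-5 clone, paired with TRAV12-2, had 216 cells, 6.62% of the library (95% exact Clopper-Pearson interval 5.79% to 7.53%). It ranked 3 by size there and held 59.8% of the member cells. It was followed by the TRBJ2-1 clone paired with TRAV14-1 (58 cells, 1.78%) and the TRBJ1-5 clone paired with TRAV16D-DV11 (53 cells, 1.62%). The same 3 clones led the members of LNP-P20-mAb 2, with 95, 64 and 34 cells (4.71%, 3.17% and 1.69%). LNP-P20-mAb 3 had a single large member, the TRBJ2-1 clone paired with TRAV14N-1 (76 cells, 2.67%, interval 2.11% to 3.33%).

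In the control libraries large members were fewer. LNP-Ctrl 2 held 1, the TRBJ1-1 clone paired with TRAV5-4 (54 cells, 1.38%), which ranked 4 by size in that library. The leading members of LNP-Ctrl 1, all TRBV1, paired TRBJ2-4 with TRAV6-5 (11 cells) and TRBJ1-4 with TRAV7N-6 (10 cells). LNP-Ctrl 3 was led by a TRBJ2-5 clone paired with TRAV14D-3-DV8 (12 cells). The next in size were a TRBJ2-4 clone with TRAV9-4 in LNP-Ctrl 2 (4 cells), a TRBJ2-1 clone with TRAV5-4 in LNP-Ctrl 3 (3 cells, 1 of 3 member clonotypes of that size) and a TRBJ2-1 clone with TRAV6-7-DV9 in LNP-P20-mAb 3 (7 cells). With all clonotypes of 20 or more cells left out, members made up 6.395%, 4.55% and 5.32% of the remaining control cells. In LNP-P20-mAb libraries they then made up 3.58%, 5.27% and 4.73%, none of them above the control range.

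**Figure D5:**
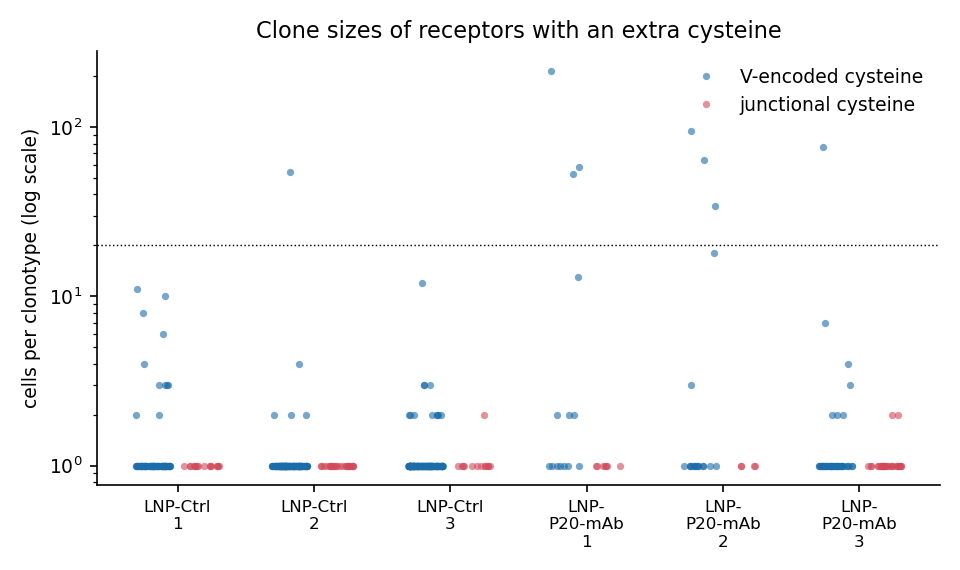
Number of cells per clonotype (vertical axis, log scale) for each clonotype with a V-encoded (blue) or junctional (red) cysteine in the 6 libraries, spread sideways at random, with a dotted line at 20 cells. The 8 points above the line are all V-encoded, 7 of them in LNP-P20-mAb libraries, and no junctional clonotype exceeds 2 cells. The same 3 clones lie above the line in LNP-P20-mAb 1 and in LNP-P20-mAb 2.

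An identical alpha loop was paired with large TRBV1 clones of separate libraries. This CDR3 of 14 residues, made with TRAJ26, occurred in 10 clonotypes, and 9 of these were TRBV1, with 262 cells (19.95% of all member cells). The loop was singled out after its values were seen, so its counts are a description. The 9 clonotypes used 4 different base sequences that give the same residues, and 3 of the 4 are shown because they belong to the clones described above. No codon is in capitals, as these chains hold no extra cysteine.
TRAV5-4 with TRAJ26, LNP-Ctrl 2 and 3: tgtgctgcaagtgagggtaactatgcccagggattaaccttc
TRAV14-1 with TRAJ26, LNP-P20-mAb 1 and 2: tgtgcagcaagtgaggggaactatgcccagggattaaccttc
TRAV14N-1 with TRAJ26, LNP-P20-mAb 1, 2 and 3: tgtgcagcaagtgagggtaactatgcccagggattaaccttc
Among TRBV1 cells the loop was carried by 54 of 188 in LNP-Ctrl 2, by 5 of 181 in LNP-Ctrl 3 and by 0 of 131 in LNP-Ctrl 1, which allows a share of up to 2.29%. It was carried by 59 of 353 in LNP-P20-mAb 1, by 67 of 228 in LNP-P20-mAb 2 and by 77 of 136 (56.6%) in LNP-P20-mAb 3. Among cells without TRBV1 it was carried by 1 of 17898. Of the 431 distinct alpha loops of TRBV1 clonotypes, 1 other occurred in 3 libraries, with 3 cells in all. Among all clonotypes, 17 of 8421 distinct alpha loops occurred in 5 or more libraries.

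The beta chains paired with that loop were alike as well. The 9 clonotypes had 7 distinct TRB, and 7 of the 9 clonotypes used TRBJ2-1 with a CDR3 of 14 residues and the same last 7 residues. All but the first of these last residues belong to the common end of TRBJ2-1, and the shared start is that of TRBV1. LNP-P20-mAb 1 and 2 hold the same TRB here, so those chains are counted in both. The codons between the shared start and that end varied, as in the TRBJ2-1 clones of 58 and 76 cells above and in 3 smaller clones, where the V-encoded cysteine codon is in capitals.
LNP-Ctrl 3, 2 cells: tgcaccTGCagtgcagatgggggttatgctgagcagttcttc
LNP-Ctrl 3, 3 cells: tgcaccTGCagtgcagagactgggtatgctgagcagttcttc
LNP-P20-mAb 1 and 2, 1 and 3 cells: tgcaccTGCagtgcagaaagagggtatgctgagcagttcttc
Of all TRBV1 clonotypes, 9 had a TRBJ2-1 CDR3 of this length and end, and 7 of these carried the recurring alpha loop. The 7 held 207 of the 209 cells. As a segment, TRAJ26 was used by 5.59% of clonotypes with a TRB cysteine and 4.37% of others, which did not pass the test (log2 difference 0.36 ± 0.31, edgeR adjusted p = 0.633). By cells it was used by 22.9% of TRBV1 cells and 3.41% of other cells. The share of TRBV1 cells ran from 1.53% in LNP-Ctrl 1, where it was below that of other cells (3.12%), to 56.6% in LNP-P20-mAb 3.

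Recurrence between libraries was low for receptors with and without an extra cysteine. By V, J and residues, 9 of 491 TRB with a cysteine (1.83%) were found in 2 libraries and none in 3, against 231 of 9729 other TRB (2.37%) in 2 or more. Of these 9, 6 were shared by LNP-P20-mAb 1 and 2. With those libraries as 1, the counts were 3 of 491 (0.611%) and 134 of 9729 (1.38%). No test of these shares was made. The other 3, all TRBV1, used TRBJ1-4 (7 cells, LNP-Ctrl 1 and 3), TRBJ1-1 (2 cells, LNP-Ctrl 2 and 3) and TRBJ2-2 (2 cells, LNP-Ctrl 1 and LNP-P20-mAb 2). Of TRB with a junctional cysteine and no TRBV1, 0 of 50 occurred in more than 1 library, and of TRA with a cysteine 0 of 45 did, against 462 of 9246 other TRA (5.00%).

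Few alpha or J segments were called in clonotypes with a TRB cysteine. With edgeR, 152 V and J segments were tested against the rest and 23 (15.1%) were called, 4 higher (2.63%) and 19 lower (12.5%). The 19 were all TRBV segments and TRBV1 was 1 of the 4, as the rule itself makes it, so these are no finding. Among the 118 alpha segments 2 were called (1.69%). TRAV14-1, which occurs in the clones with the recurring loop, was used by 12 clonotypes with a TRB cysteine (2.40%, against 0.850% of others), a log2 difference of 1.51 ± 0.56 in 6 of 6 libraries (edgeR adjusted p = 0.0466). TRAV6-5 was used by 13 (2.59%, against 0.958%), at 1.55 ± 0.55 in 6 of 6 libraries (edgeR adjusted p = 0.0359). TRBJ1-5 was used by 26 (5.19%, against 2.56%), at 1.02 ± 0.37 in 5 of 6 libraries (edgeR adjusted p = 0.0455). TRAJ56 missed the threshold at 1.22 ± 0.46 (18 clonotypes, edgeR adjusted p = 0.0505).

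These 3 calls were lost with LNP-P20-mAb 1 and 2 pooled (edgeR adjusted p = 0.173 for TRAV14-1, 0.119 for TRAV6-5 and 0.108 for TRBJ1-5), and also with TMM scaling, with DESeq2 and with cells counted, where 1 segment was higher in each case, TRBV1. Each was also lost without LNP-Ctrl 1, LNP-P20-mAb 1 or LNP-P20-mAb 2, TRAV14-1 and TRBJ1-5 without LNP-Ctrl 3, TRAV6-5 without LNP-P20-mAb 3 and TRBJ1-5 without LNP-Ctrl 2. The highest edgeR adjusted p-values were 0.364 for TRAV14-1 without LNP-Ctrl 3, 0.423 for TRAV6-5 without LNP-Ctrl 1 and 0.194 for TRBJ1-5 without LNP-Ctrl 3. Copies of TRAV segments that differ little can share chains between their names, so single TRAV counts are uncertain. With TRBV1 left out, a fit added with the values known, 50 clonotypes had a TRB cysteine and 6 of 151 segments were called (3.97%), 5 higher (3.31%) and 1 lower (0.662%). TRAJ57 (7 of 50 clonotypes, log2 2.89 ± 0.66), TRAJ56 (6, 3.02 ± 0.72), TRAV16 (7, 2.22 ± 0.63), TRAV13-4-DV7 (4, 3.53 ± 0.92) and TRAV21-DV12 (4, 3.36 ± 0.91) were higher (edgeR adjusted p = 0.0113, 0.0113, 0.0321, 0.0260 and 0.0280). TRBJ2-5, used by 0 of the 50 and by 1260 of 10122 others (12.4%), was lower (edgeR adjusted p = 0.0280). TRBJ segments lie in the chain that holds the cysteine and can give bases of its codon. The TRBJ2-5 call is therefore not independent of the rule. The higher calls rest on 4 to 7 clonotypes each. TRAJ57 was higher in 3 of 6 libraries, TRAJ56 in 5, TRAV16 in 4, and TRAV13-4-DV7 and TRAV21-DV12 in 3 each. Of the 50 distinct TRB with a cysteine, 21 came from LNP-P20-mAb 3. The median log2 difference of all segments in this fit was -4.35, as many segments had a count of 0 beside the cysteine.

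No segment was called in edgeR for the 45 clonotypes with a TRA cysteine. Of 152 segments, 0 (0%) passed in edgeR and 7 had an unadjusted p below 0.05 (4.61%). The lowest p-values belonged to TRAV12N-2 (5 of 45 clonotypes, log2 2.32 ± 0.74), TRAV4-4-DV10 (4, 2.59 ± 0.83) and TRAV12-2 (6, 1.75 ± 0.72), each missing the threshold (edgeR adjusted p = 0.423, 0.423 and 0.594). TMM scaling and DESeq2 called 35 and 40 segments, all lower, and under TMM the median log2 difference of all segments went from -1.08 to -3.12. A TRA cysteine was found in 1.14% ± 1.87 of clonotypes with a TRB cysteine and in 0.464% ± 0.106 of others (SD over 6 libraries), which did not pass the test (exact sign-flip permutation p = 0.594).

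Members had more TRB UMIs per cell and slightly longer TRB loops than others in every library, which did not pass the test after adjustment. The median number of TRB UMIs per member cell was 24, 19 and 20 in control libraries, against 20, 14 and 14 in other cells. In LNP-P20-mAb libraries it was 23, 27 and 28, against 18, 20 and 18. The log2 ratio was 0.44 ± 0.13 (SD over 6 libraries) and above 0 in 6 of 6 (exact sign-flip permutation p = 0.0312, the smallest that 64 flips allow, adjusted p = 0.188). TRBV1 ranked 3 to 5 from the highest in median UMIs among the 17 to 21 TRBV segments with 20 or more cells in a library, so other segments lay above it. With LNP-P20-mAb 1 and 2 as 1 sample the log2 ratio was 0.45 (exact sign-flip permutation p = 0.0625, adjusted p = 0.375). With TRBV1 left out the log2 ratio was 0.01. TRA UMIs had medians of 8, 6, 5, 7, 8 and 11 in members and 10, 6, 6, 8, 9 and 8 in other cells, in the same order of libraries.

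The mean TRB CDR3 length of clonotypes with a TRB cysteine was 14.28 ± 0.103 residues, against 13.98 ± 0.0452 in others (SD over 6 libraries). The difference of 0.299 residues was above 0 in 6 of 6 libraries (exact sign-flip permutation p = 0.0312, adjusted p = 0.188), between 0.413 and 0.423 in LNP-Ctrl and between 0.167 and 0.190 in LNP-P20-mAb libraries. TRBV1 had a mean of 14.36 residues, which ranked 3 of 22 TRBV segments, after TRBV2 and TRBV5. With LNP-P20-mAb 1 and 2 as 1 sample the difference was 0.322 residues (exact sign-flip permutation p = 0.0625, adjusted p = 0.375). With TRBV1 left out the difference was 0.127 residues (exact sign-flip permutation p = 0.625). A longer loop has more places for a cysteine, so length is not independent of the rule that chose the members.

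The other features compared did not pass their tests. A D segment was named in 24.8% ± 3.47 of TRB chains with a cysteine and 23.3% ± 1.31 of others (exact sign-flip permutation p = 0.312). TRBD2 made up 40.1% ± 13.3 and 37.5% ± 4.23 of the named D segments (exact sign-flip permutation p = 0.562), and the TRBJ2 cluster 71.6% ± 11.5 and 69.0% ± 2.44 of the chains (exact sign-flip permutation p = 0.875). D calls, J clusters and the TRA length below are read from the chain in which the rule finds the cysteine, so they are not independent of it. With LNP-P20-mAb 1 and 2 as 1 sample these differences were 0.546, 1.40 and 0.666 points, and the first was 0.418 without LNP-P20-mAb 1 and 2.82 without LNP-Ctrl 1. The TRA with a cysteine had a mean CDR3 length of 14.1 ± 1.25 residues, against 13.7 ± 0.0419 (exact sign-flip permutation p = 0.469). The difference of 0.396 residues was 0.106 without LNP-Ctrl 3, which holds a TRA CDR3 of 40 residues, and 0.220 with LNP-P20-mAb 1 and 2 as 1 sample. Cells with 2 TRA chains made up 7.98% ± 5.81 of members and 13.4% ± 5.94 of others (exact sign-flip permutation p = 0.125), the members being lower in 4 of 6 libraries. Of receptors with the alpha chain of invariant NKT cells (TRAV11 with TRAJ18), whose beta partners include TRBV1, 4 were members and 48 were not. Of those with the alpha chain of MAIT cells (TRAV1 with TRAJ33), 1 was a member and 16 were not.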

How the data were processed

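The 6 TCR libraries were analysed from tables of assembled chains that give cell barcode, V, D and J segments, CDR3, and UMI and read numbers. The deposited values are counts, whole numbers of UMIs and reads per chain per the file headers, with no normalization named. Cell Ranger 8.0.1 appears in the submitters' processing notes, along with several mouse builds, with no statement of which build was used for what, and no coordinates are printed. Calling of cells and chains was done before deposit, so a dropped chain cannot be seen here.

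Repeated entries of a chain on a barcode were merged, and 1844 barcodes with 2 or more TRB chains were left out as candidate doublets. No doublet caller was run. A codon was V-encoded or J-encoded when it matched the common start or end of its segment. These were read from segments with 20 or more distinct CDR3, for as long as 50% of those still matching, and at least 10% of all, shared the next base. All other codons are junctional, so a codon that matches the J segment only in its last bases is junctional.

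Each library was 1 replicate. Treatments were compared with two-sided exact permutation tests over 20 assignments (smallest p 0.1), and differences within libraries with two-sided exact sign-flip permutation tests over 64 flips (smallest p 0.03125). Benjamini-Hochberg adjustment ran over 9 and 12 comparisons, with a threshold of 0.05. Segments and residues were tested with edgeR 4.0.16 (quasi-likelihood, library as a block, number of clonotypes as library size) in R 4.3.3 on counts of distinct clonotypes, for segments with 30 or more clonotypes (152), adjusted over all tested. DESeq2 1.42.0 was an alternative. Other steps used Python 3.11.15 with pandas 2.3.3 and scipy 1.17.1. In simulated data, 34.7% of segments changed 2-fold and 92.7% of those changed 4-fold were recovered by the test of TRB cysteine, which called 0.820% of the unchanged. For the test of TRA cysteine recovery was 2% and 26%. For that of residues it was 92.5% and 97.5% over all 40 together, with 1.56% of unchanged residues called. Recovery of cysteine alone, the rarest residue, was not tested.

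Binomial intervals are 95% exact Clopper-Pearson, and a 0 is shown with the share equal to 3 counts. Intervals and such limits reflect counting error alone. The members and lists were chosen with earlier results of these data known. Named were every member clonotype of 20 or more cells, otherwise the 2 largest of each library, chains found in 3 or more libraries (none), and called segments. Other names, the split into V-encoded and junctional cysteines, the residue fit and the fits without TRBV1 were chosen after the values were seen.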

Additional observations from a re-analysis of the deposited data

Results flagged for a closer look

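Barcodes outside the comparisons, those with no or several TRB chains or with no or more than 2 TRA chains, also held extra cysteines. In LNP-P20-mAb libraries 1.11% of their distinct TRB chains without TRBV1 (7 of 629) had one, against 0.731% (15 of 2051) in LNP-Ctrl libraries. Of these 7, 6 were in LNP-P20-mAb 3, and without that library the share was 0.346% (1 of 289), below that of the controls. Of their TRA chains 0.556% (2 of 360) had one, against 0.2% (2 of 1000), and both came from LNP-P20-mAb 3, with 0 of 188 in the other libraries of that treatment. These were singled out because the share in data that no comparison used lay above that in the controls. The exact Clopper-Pearson intervals of each pair overlap, at 0.449% to 2.28% against 0.410% to 1.20% for the TRB and at 0.0674% to 1.99% against 0.0242% to 0.721% for the TRA.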

How the results depend on the processing

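Of the values that answer a comparison, 249 kept their direction and side of the threshold, 13 changed direction and 8 moved. With TRBV1 left out, the treatment difference was 0.776 points for clonotypes with a cysteine in either CDR3, 0.625 for those with one in the TRB, and -12.4 for the expanded share of members minus others. Over libraries, members minus others then was -9.67 points in expanded share, 4.79 points in cells with 2 TRA chains, and -1.15 as the log2 ratio of mean clone size (0.45 with TRBV1), and the TRB segment fit had 6 calls. Leaving out each library in turn gave -0.550 to 0.457, -0.707 to 0.317 and -2.62 to 5.83 points for the first 3 of these, the positive values of the clonotype shares being largest and that of the expanded share lowest without LNP-P20-mAb 1. It gave -0.0120 to 5.95 points for the TRBD2 share, -1.21 to 3.95 for the TRBJ2 share, -0.0323 to 0.925 for TRA cysteine beside TRB cysteine (lowest without LNP-P20-mAb 1 for the first pair and without LNP-P20-mAb 2 for the last), and 2 to 6 calls in the residue fit, which had 2 with LNP-P20-mAb 1 and 2 pooled. The TRA segment fit had 40 calls with DESeq2 and 35 with TMM scaling.

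Single segments that changed direction were TRAV14-1 (-5.70) and TRAV6-5 (-5.84) with TRBV1 left out, where 0 clonotypes of either remained, all in log2. The segments called with TRBV1 left out were not called in the fit of all clonotypes with a TRB cysteine. In that fit TRAJ57 was at 0.75, TRAV16 at 0.54 and TRBJ2-5 at -0.38, and with cells counted at -0.061, -0.88 and 0.73. TRAV13-4-DV7 was there at 0.46 and ran from -0.084 to 1.18 over left-out libraries. In the TRA fit TRAV12-2 ran from -0.30 to 2.07 over left-out libraries, and TRAV12N-2 was -0.094 and TRAV12-2 -1.59 with DESeq2, and -0.31 for TRAV12-2 with TMM. The cause of these changes was not tested.

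Same-numbered libraries of the treatments did not deviate together in segment use (r over 152 segments -0.0470, -0.110 and -0.0426). Whether the numbers mark a pair or a batch in other respects was not tested. With the replicate block the difference in member cells of 4.49 points had an exact permutation p of 0.25. That is the smallest possible, so with the block no comparison by treatment could pass. Rare kinds limit precision: 4 to 28 junctional clonotypes per library. The segment fit without TRBV1 was not repeated with libraries left out.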

Other observations

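The longest CDR3 of any deposited chain was a member by its cysteine. It was a TRA of 40 residues in LNP-Ctrl 3, named TRAV9-4 and TRAJ17 and read with 2 UMIs, and the next longest CDR3 had 24 residues. Its middle holds the residues in which TRAJ18 loops commonly end, followed by those with which the framework region after TRAJ18 begins, and only then the end of TRAJ17. The cysteine is at position 29, after the TRAJ18 stretch. By the definition used it counts among the 45 junctional TRA cysteines, although it lies past a J stretch.

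The second TRA chain of cells with 2 was not read by the rule. Of 1524 distinct second TRA chains 7 held an extra cysteine (0.459%), against 47 of 10528 first ones (0.446%), and all 7 cells with such a second chain fell outside the members.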
